A study of Mus musculus with 30 samples.

Results

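Gene expression in plated mouse hepatocytes was compared between 3 RNA pools of the strain A1cf_Tg/+ (Tg) and 3 pools of C57BL/6J wild-type mice (WT). These pools were chosen by the titles of their libraries and are 6 of the 30 libraries of the series, which otherwise holds whole livers and CLIP-seq of Tg hepatocytes. Mice of both groups were 12 weeks old, and each pool joined RNA of 3 to 4 mice. Their livers were digested with collagenase, and the cells spent a night on collagen before RNA was taken and its polyadenylated part sequenced. The labels do not name the promoter that drives the transgene, the founder line or the sex of the mice, nor say whether pools share mice. Where they do, the p-values would measure only the spread between these pools. The Tg mice carry 1 transgenic allele per their strain name. No allele or treatment other than plating is given for either group.

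A1CF, the product of A1cf, is an RNA-binding protein of the liver cell nucleus and a partner of the cytidine deaminase APOBEC1, which edits apolipoprotein B mRNA. Hepatocytes secrete most plasma proteins and carry out much of the body's bile acid, drug and amino acid metabolism. Once taken from the liver and plated, they spread on the dish, build a cytoskeleton and lose part of this program.

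Genes lower in the Tg pools included 10 targets of the hypoxia-inducible factors and genes along the whole of chromosome 14. Among the genes that were higher were those of the surface proteins Adgre5, Ly6d and Ly6a, of 2 chains of basement membrane collagen, and of several carriers and protease inhibitors. In all, 434 of 13770 tested genes passed an adjusted p of 0.05 in edgeR's quasi-likelihood test, which is 3.15% of those tested. Of these, 211 were higher in Tg (1.53%) and 223 lower (1.62%). Outside chromosome 14, 209 of 13333 genes rose (1.57%) and 146 fell (1.1%). All fold changes below are log2 estimates of Tg over WT from edgeR ± their standard error (SE), adjusted p-values are Benjamini-Hochberg values over all genes tested, and levels are counts per 1e+06 counts of a library (CPM) after TMM scaling.

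A1cf itself did not pass. It was read at 7.94, 9.57 and 10.4 CPM in the Tg pools and at 6.52, 10.5 and 10.6 CPM in the WT pools, and edgeR gave 0.02 ± 0.24 (adjusted p = 0.962). With each pool's slope on transcript length, described below, as a covariate, the estimate was 0.53 ± 0.27 (adjusted p = 0.268). With an offset fitted by gene length it was 0.09 ± 0.23 (adjusted p = 0.807). In livers labelled Tg, A1cf was lower than in wild-type livers, at -0.65 ± 0.11 (adjusted p = 0.0369). In hepatocytes the groups overlapped, so that gene counts gave no check of the Tg label from A1cf. Apob, whose mRNA is the best known partner of A1CF and is long, spread from 623 to 3143 CPM in the Tg pools and from 1482 to 4964 CPM in the WT pools. Its estimate was -1.12 ± 0.72 (adjusted p = 0.307 in edgeR) and turned to 0.82 ± 0.30 (adjusted p = 0.151) with the same covariate. With the length offset it stayed below 0, at -0.67 ± 0.52 (adjusted p = 0.383).

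The 6 pools differed in a way that the groups only partly follow, and every result below stands beside it. For each pool, the log2 deviation of all genes from the mean of the 6 pools was regressed on log2 transcript length. The slopes were -0.15, -0.092 and 0.022 in Tg pools 1, 2 and 3, and 0.017, 0.12 and 0.085 in WT pools 1, 2 and 3. Tg pools 1 and 2 therefore had relatively more reads on short genes and WT pools 2 and 3 more on long ones, while Tg pool 3 and WT pool 1 lay close to each other in between. The mean of the Tg slopes minus that of the WT slopes was -0.148, with an exact two-sided permutation p of 0.2, where 3 pools against 3 cannot go below 0.1. Mitochondrial RNA took 1.4%, 1.39% and 3.48% of the counts of the Tg pools and 2.01%, 3.71% and 3.14% of those of the WT pools. Total counts ran from 26144213 to 37211328 per pool. The genes were put in 5 classes of equal number by length. Outside chromosome 14, the median log2 fold change was 0.19 in the shortest class (56 to 1894 bases) and -0.35 in the longest (from 6217 bases).

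**Figure D1:**
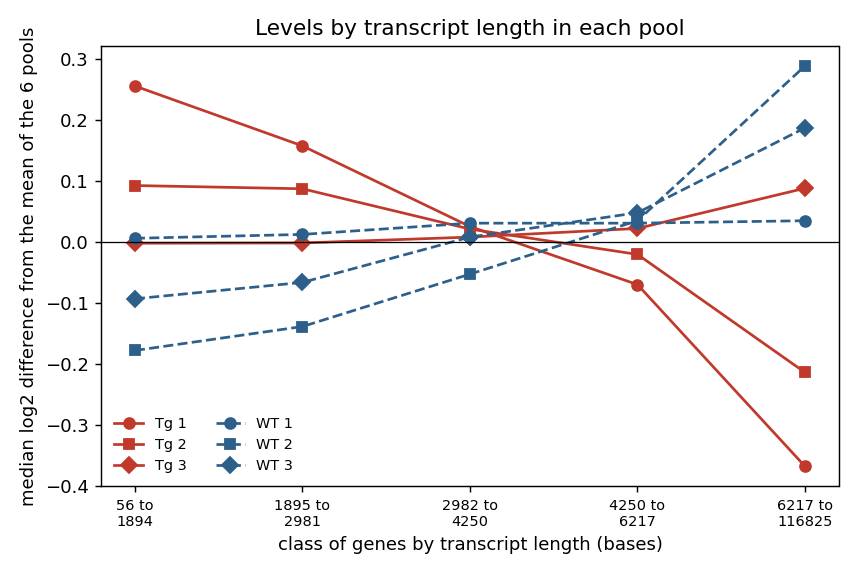
Median log2 difference of each of the 6 pools from the mean of all of them (y axis) by class of transcript length in bases (x axis). Each of the 5 classes holds 2754 genes, and the medians leave out those on chromosome 14. Lines are solid red for Tg pools and dashed blue for WT pools. Tg pools 1 and 2 fall from 0.26 and 0.092 in the shortest class to -0.37 and -0.21 in the longest, WT pools 2 and 3 rise to 0.29 and 0.19, and Tg pool 3 and WT pool 1 stay within 0.09 of 0.

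Distances between pools also crossed the groups. Tg pools 1 and 2 differed by a median of 0.17 per gene on the log2 scale, but Tg pools 1 and 3 by 0.46. Tg pool 3 and WT pool 3 differed by 0.23, less than Tg pool 3 from either of the other Tg pools. The pools were therefore read in 2 further ways. A fit with each pool's slope on length as a covariate called 418 genes higher (3.04%) and 303 lower (2.2%), and 242 of the 434 calls passed in it in the same direction, which is 55.8% of the 434 and 33.6% of the 721 genes that this fit called. The difference was also taken within the 3 pools of lower slope (Tg 1 and 2 against WT 1) and within the 3 of higher slope (Tg 3 against WT 2 and 3). On each side the Tg pools still had lower slopes than the WT pools, so the split does not match the groups on length. The called genes were chosen on the same 6 pools, so equal signs on both sides are fixed in large part by that choice. The calls leaned on single pools: 4934 genes passed without Tg pool 3, between 12 and 90 without any one of Tg pools 1 and 2 and WT pools 1 and 2, and 0 in edgeR without WT pool 3, where 2402 genes had an unadjusted p below 0.05.

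Several genes stood so far apart that most subsets of the pools gave the call. In 5 of the 6 fits that leave out a pool, all but that without WT pool 3, 12 genes passed, 11 of them higher in Tg. Gldn encodes gliomedin, an adhesion protein of peripheral nerve, and is at chromosome 9, 54286486 to 54341786 (GRCm38). It was read at 11.6, 9.42 and 12.1 CPM in the Tg pools and at 0, 0.0816 and 0.109 CPM in the WT pools, from 1038 reads against 7. Adgre5 encodes the adhesion receptor CD97, known from leukocytes, and is at chromosome 8, 83723251 to 83741326. It was read at 173, 147 and 98.8 CPM in the Tg pools against 4.18, 2.15 and 4.87 CPM in the WT pools. Every Tg pool lay far above every WT pool for both genes. The log2 fold changes were 7.32 ± 0.55 for Gldn and 5.22 ± 0.39 for Adgre5, each with an adjusted p of 0.00582 in edgeR. With the length covariate Gldn stood at 7.49 ± 0.51 and Adgre5 at 4.46 ± 0.28.

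The other rises of this group had narrow spreads as well. Slc13a3, a sodium-coupled carrier of dicarboxylates, was read at 20.1, 16.1 and 13.9 CPM in Tg against 1.46, 1.12 and 1.42 CPM in WT pools (3.65 ± 0.23). Micall2, a regulator of actin and of junction proteins, stood at 62.5, 57.3 and 51.5 CPM in Tg pools and at 8.76, 10.2 and 11.5 CPM in WT pools (2.49 ± 0.17). In neither of them did the groups overlap. Igdcc4, of the immunoglobulin superfamily, rose from under 0.1 CPM in each WT pool to between 2.67 and 4.77 CPM in Tg pools (5.99 ± 0.46). Col22a1, a collagen of tissue junctions, rose from between 1.37 and 1.79 CPM to between 8.88 and 10.7 CPM (2.72 ± 0.21). Serpinb1a, an intracellular inhibitor of neutrophil proteases, rose from between 1.31 and 1.77 CPM to between 8.88 and 12.6 CPM (2.94 ± 0.24). Slfn2, an interferon-responsive gene of lymphoid and myeloid cells, rose from between 11.6 and 15.8 CPM to between 64.4 and 95.4 CPM (2.48 ± 0.21). All of these had adjusted p-values of 0.00582 to 0.00815 in edgeR, and all passed with the length covariate too.

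**Figure D2:**
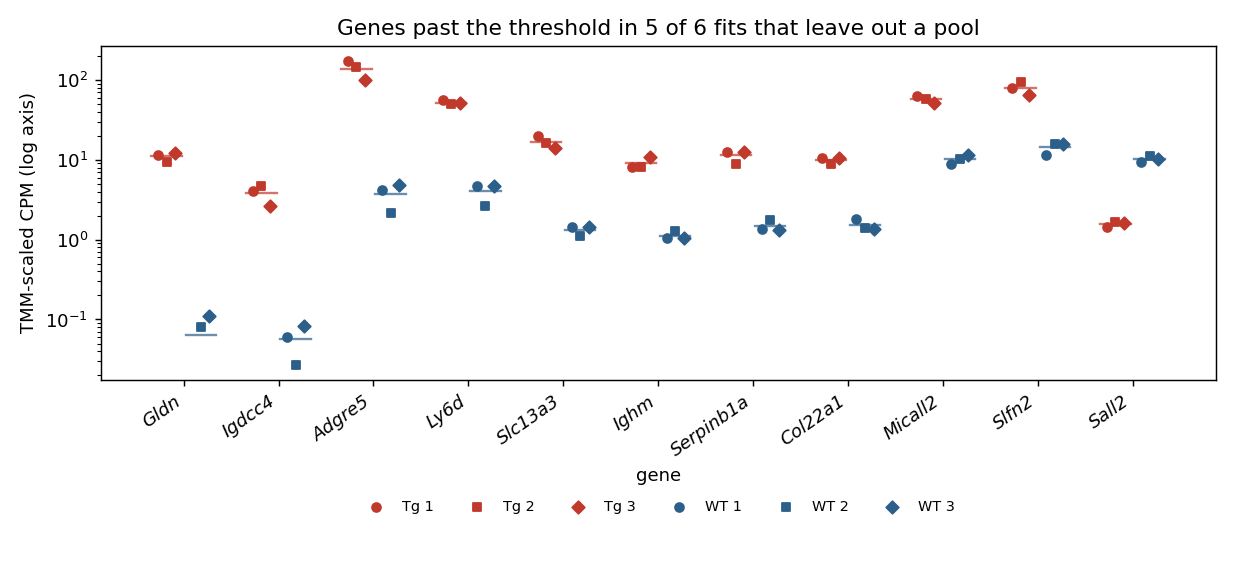
TMM-scaled CPM on a log axis for 11 of the genes that passed in 5 of the 6 fits leaving out 1 pool, with a point for each pool (Tg red, WT blue) and a bar at each group's mean, n = 3. Of these genes, 10 have all Tg pools above all WT pools, Gldn having no WT 1 point because it is at 0 there, and Sall2 has all Tg pools below.

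Surface proteins of the Ly6 family, small proteins held to the membrane by a lipid anchor, gave 3 rises and no fall among 8 tested members, with a median of 1.22 (all genes: -0.02). Counts of calls in this and the following lists stand beside the 1.53% of all tested genes that rose and the 1.62% that fell. The lists were written with earlier results of these data known, so their counts and medians are descriptions and not tests. Ly6d, a marker of lymphoid and epithelial cells, was read at 56, 49.9 and 50.9 CPM in Tg pools and at 4.73, 2.61 and 4.76 CPM in WT pools (3.70 ± 0.27, adjusted p = 0.00582 in edgeR). Ly6a, known as the stem cell antigen Sca-1, was read at 411, 301 and 215 CPM against 51.9, 15.3 and 38.5 CPM (3.13 ± 0.48, adjusted p = 0.0298). Neither gene's groups overlapped, and both passed with the length covariate. Ly6c2, a surface protein of monocytes, was low, at 0.533 to 0.667 CPM in Tg pools and 0.0544 to 0.164 CPM in WT pools (2.53 ± 0.47, adjusted p = 0.0414). It did not pass with the length covariate (adjusted p = 0.0777). Ly6a and Ly6c2 have close paralogs between which the authors' counting could split reads. Among 14 tested adhesion G protein-coupled receptors Adgre5 alone passed, and among 20 tetraspanins Tspan15 alone, a partner of the sheddase ADAM10. Tspan15 rose from between 0.182 and 0.52 CPM to between 4.42 and 8.52 CPM (4.10 ± 0.44, adjusted p = 0.0134).

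Genes of the basement membrane, the sheet of laminin and type IV collagen under epithelia, gave 3 rises and 1 fall among 20 tested members, with a median of 0.32. Col4a3 and Col4a4 are neighbours on chromosome 1 (82586921 to 82722059 on the plus strand and 82448423 to 82586849 on the minus strand), and encode chains of the collagen network best known from the kidney glomerulus. Col4a3 was read at 3.83, 4.62 and 6.51 CPM in Tg pools and at 0.212, 0.354 and 0.574 CPM in WT pools (3.69 ± 0.42, adjusted p = 0.0148 in edgeR). Col4a4 was read at 5.04, 4.92 and 5.75 CPM against 0.334, 0.898 and 0.574 CPM (3.11 ± 0.37, adjusted p = 0.016). Both transcripts are long, and their estimates were larger with the length covariate, 4.39 ± 0.41 and 3.57 ± 0.43. Lama5, a laminin chain, rose as well (1.93 ± 0.35, adjusted p = 0.0396), but did not pass with the covariate (adjusted p = 0.0907). Nid2, the linker protein nidogen-2, fell from between 15.2 and 16.5 CPM to between 4.93 and 5.98 CPM (-1.50 ± 0.16, adjusted p = 0.0134), and is on chromosome 14.

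Integrins are the receptors that hold cells to matrix. Of 20 tested integrins, 2 fell and none rose: Itgb1, the common beta chain of the collagen and fibronectin receptors, and Itga1, the alpha chain of a collagen receptor. Itgb1 was read at 285, 296 and 431 CPM in Tg pools and at 612, 735 and 678 CPM in WT pools (-1.0 ± 0.19, adjusted p = 0.0473 in edgeR), and Itga1 at 5.54 to 7.65 CPM against 12.5 to 17.2 CPM (-1.13 ± 0.21, adjusted p = 0.0412). The groups did not overlap in either, yet neither passed with the length covariate (adjusted p = 0.0739 and 0.0728), and the list's median was above 0, at 0.27. With the covariate the median was 0.65, and 3 members rose and none fell, among them Itgb2, the beta chain of leukocyte integrins (1.33 ± 0.25, adjusted p = 0.0316). In the list of cytoskeleton and spreading genes, 1 of 32 rose and 1 fell, with a median of 0.34 that turned to -0.15 with the length covariate. Cd44, the hyaluronan receptor, stood at 242, 210 and 167 CPM in Tg pools and at 78.5, 67.6 and 111 CPM in WT pools (1.27 ± 0.23, adjusted p = 0.0396, 0.113 with the covariate). Anxa3, an annexin that binds membranes with calcium, fell from between 199 and 307 CPM to between 91.4 and 108 CPM (-1.39 ± 0.19, adjusted p = 0.0241). Outside that list, the abundant falls included Msn, the membrane-actin linker moesin (-0.89 ± 0.13), Sorbs2, an adaptor of actin fibres (-1.05 ± 0.17), and Arhgef12, an activator of RhoA (-0.93 ± 0.16). Their adjusted p-values were 0.0273, 0.0304 and 0.0361. With a length offset they were 0.076, 0.246 (at -0.35 ± 0.19) and 0.0996, and Arhgef12 did not pass with the length covariate either (0.0755).

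Keratins, the intermediate filaments of epithelia, gave 2 rises among 9 tested members, Krt23 and Krt20. Krt23 was read at 42.4, 28.9 and 16.8 CPM in Tg pools and at 1.79, 1.88 and 1.56 CPM in WT pools (4.07 ± 0.37, adjusted p = 0.00848 in edgeR). Within the Tg pools Krt23 was highest in pool 1 and lowest in pool 3. Krt20 rose from between 4.92 and 8.95 CPM to between 18.9 and 31.4 CPM (1.88 ± 0.29, adjusted p = 0.0298). The list's median fell from 0.61 to 0.13 with the length covariate, in which both genes still passed. Amotl2, a junction protein that restrains the growth regulator YAP, was even within groups, at 252, 241 and 244 CPM against 159, 166 and 154 CPM (0.62 ± 0.11, adjusted p = 0.0333). Lats2, a kinase that inhibits YAP, fell (-1.06 ± 0.16, adjusted p = 0.0297) and is on chromosome 14. They were the only 2 called genes among 22 YAP and TEAD targets, whose median was -0.22 and 0.17 with the covariate. The desmosomal cadherin gene Dsg2 was the only called gene of 32 cell junction genes (-0.66 ± 0.12, adjusted p = 0.0412, 0.0516 with the covariate).

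Matrix proteases and their inhibitors gave 4 rises and 1 fall among 40 tested members, with a median of 0.20. Plat, the tissue plasminogen activator, was read at 78.5, 85.1 and 68.5 CPM in Tg pools against 15.1, 10.2 and 26 CPM in WT pools (2.18 ± 0.34, adjusted p = 0.0298 in edgeR). Serpinb9, an inhibitor of granzyme B, rose from between 87.1 and 99.8 CPM to between 147 and 170 CPM (0.74 ± 0.12, adjusted p = 0.0308). The others that rose were Serpinb1a and the membrane protease gene Adam8 (0.95 ± 0.17, adjusted p = 0.0372). Mmp14, the membrane-bound collagenase, fell from 176, 123 and 161 CPM to 84.7, 78 and 71.6 CPM (-0.97 ± 0.16, adjusted p = 0.0333), and is on chromosome 14. Plat and Adam8 did not pass with the length covariate (adjusted p = 0.0536 and 0.0609).

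Hypoxia-inducible factors are transcription factors that are broken down when oxygen is plentiful and, when it is scarce, raise genes of glycolysis, of mitochondrial turnover and of blood vessel growth. They bind a core motif that was searched here as ACGTG or GCGTG on both strands. Of 39 tested targets, 10 were lower in Tg pools and none was higher, beside 1.62% of all tested genes that fell and 1.53% that rose. The median was -0.64 against -0.02 over all genes. Of the 10, 2 are on chromosome 14, where 17.6% of the tested genes fell. In 19 of the 39 all Tg pools lay below all WT pools, and in 2 above, where over all tested genes 16.5% lay below and 16.5% above. With the length covariate 4 of the 39 fell and none rose, with a median of -0.49. Of the 10 fallen genes, 3 passed in that fit and all 10 stayed below 0, from -2.95 to -0.68. The promoters of the 2 fallen targets of smallest p that have an entry, Pfkp and Pdk1, and that of Bnip3, the only one of the 6 fallen targets with an entry that holds ACGTG, are shown with matches on either strand in capitals, overlapping ones joined (RefSeq, GRCm38.p6, 250 bases before to 50 after the gene start, 5′ to 3′ on the gene's strand).
Pfkp (chr13:6648722-6649021, minus strand): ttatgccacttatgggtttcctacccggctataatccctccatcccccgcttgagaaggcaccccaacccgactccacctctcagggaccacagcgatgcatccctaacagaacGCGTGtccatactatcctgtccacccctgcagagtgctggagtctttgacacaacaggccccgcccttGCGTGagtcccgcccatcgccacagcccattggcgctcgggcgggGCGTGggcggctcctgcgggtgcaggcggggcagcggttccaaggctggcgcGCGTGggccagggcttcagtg
Pdk1 (chr2:71872974-71873273, plus strand): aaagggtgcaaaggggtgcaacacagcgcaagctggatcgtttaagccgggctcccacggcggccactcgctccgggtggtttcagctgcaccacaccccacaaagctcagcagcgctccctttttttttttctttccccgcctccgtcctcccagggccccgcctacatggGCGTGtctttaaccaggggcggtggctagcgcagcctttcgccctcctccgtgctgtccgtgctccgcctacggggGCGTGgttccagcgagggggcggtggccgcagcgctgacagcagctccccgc
Bnip3 (chr7:138909457-138909756, minus strand): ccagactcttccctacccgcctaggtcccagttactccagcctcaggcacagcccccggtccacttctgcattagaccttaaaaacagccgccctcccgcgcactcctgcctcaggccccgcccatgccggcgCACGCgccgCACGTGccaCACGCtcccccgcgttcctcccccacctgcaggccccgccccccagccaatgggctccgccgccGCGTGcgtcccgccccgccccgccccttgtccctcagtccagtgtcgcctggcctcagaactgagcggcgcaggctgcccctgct

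These windows hold 4 matches in Pfkp, 2 in Pdk1 and 5 in Bnip3, counted on both strands. A match was present in 5 of the 6 fallen targets with an entry (83.3%), in 25 of 33 targets of the list (75.8%) and in 62.2% of the first promoters of 10414 tested genes. ACGTG alone was present in 25.6% of the latter. Ndufa4l2, Ero1l, Bnip3l and Lox were not matched to the table, and Mxi1 had no match in its window.

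The enzymes of sugar use came first. Pfkp and Pfkl encode isoforms of phosphofructokinase, which commits sugar to glycolysis, and Pdk1 the kinase that shuts the entry of pyruvate into mitochondria. Pfkp was read at 3.91, 2.46 and 3.69 CPM in Tg pools and at 13, 33.1 and 21.6 CPM in WT pools (-2.75 ± 0.38, adjusted p = 0.0246 in edgeR). Pdk1 was read at 8.49, 7.34 and 9.33 CPM against 23.1, 62 and 35.5 CPM (-2.26 ± 0.36, adjusted p = 0.0306). Pfkl, the liver isoform, was read at 86.6, 69.4 and 59.2 CPM against 145, 200 and 146 CPM (-1.19 ± 0.20, adjusted p = 0.0333). The Tg pools were close together in Pfkp and Pdk1, and the WT pools were spread, pool 2 being the highest and pool 1 the lowest. Pfkl passed with the length covariate (adjusted p = 0.0455) and Pfkp and Pdk1 did not (0.0775 and 0.121). The glucose importer gene Slc2a1 overlapped between groups (-0.10 ± 0.22, adjusted p = 0.766). Ldha, the lactate-forming enzyme, did not overlap, but its estimate of -0.34 ± 0.15 did not pass (adjusted p = 0.189). Hk2, the hexokinase of muscle and tumours, lay above, at 61.2, 89.9 and 66.9 CPM against 30.4, 31.4 and 43.3 CPM (1.05 ± 0.21, adjusted p = 0.0523).

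Mitochondrial targets of the same factors were lower too. Ndufa4l2, a respiratory chain protein that lowers oxygen use in hypoxia, is at chromosome 10, 127514939 to 127517152. It was read at 1.68, 1.1 and 1.56 CPM in Tg pools and at 11.3, 18.7 and 13.6 CPM in WT pools (-3.33 ± 0.29, adjusted p = 0.00815 in edgeR, 0.0136 with the length covariate). Bnip3 and Bnip3l mark mitochondria for autophagy. Bnip3 was read at 7.6, 8.11 and 11.5 CPM against 21, 52.9 and 37.4 CPM (-2.04 ± 0.36, adjusted p = 0.0371), and Bnip3l at 9.16, 11.1 and 16.6 CPM against 32.5, 52.9 and 37.5 CPM (-1.74 ± 0.29, adjusted p = 0.0325). In each of the 3 genes the groups were apart. Bnip3l and Ero1l, an oxidase of the endoplasmic reticulum (-1.58 ± 0.30, adjusted p = 0.045), are on chromosome 14. Of the rest, Lox, which crosslinks collagen, fell from between 1.73 and 3.91 CPM to between 0.406 and 0.609 CPM (-2.40 ± 0.40), as did the chemokine receptor gene Ackr3 (-2.96 ± 0.57) and the MYC antagonist gene Mxi1 (-0.85 ± 0.15). The adjusted p-values of Lox, Ackr3 and Mxi1 were 0.0329, 0.0476 and 0.0386.

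Not all targets followed. Vegfa, the vessel growth factor, was read at 39.7, 45.5 and 59 CPM in Tg pools and at 58.5, 131 and 116 CPM in WT pools, so that Tg pool 3 and WT pool 1 met (-1.08 ± 0.31, adjusted p = 0.0972 in edgeR, and -0.24 ± 0.31 with the length covariate). Egln3, an oxygen sensor that the factors raise, was at 12.5 CPM in WT pool 1, inside the Tg range of 10.5 to 13.3 CPM, and at 43.9 and 46.7 CPM in the other WT pools. WT pool 2 was the highest of the 6 pools in 8 of the 10 fallen targets. Leaving out 1 pool at a time kept Ndufa4l2 past the threshold in 4 of 6 fits and Pfkp, Pdk1 and Bnip3 in 2.

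**Figure D3:**
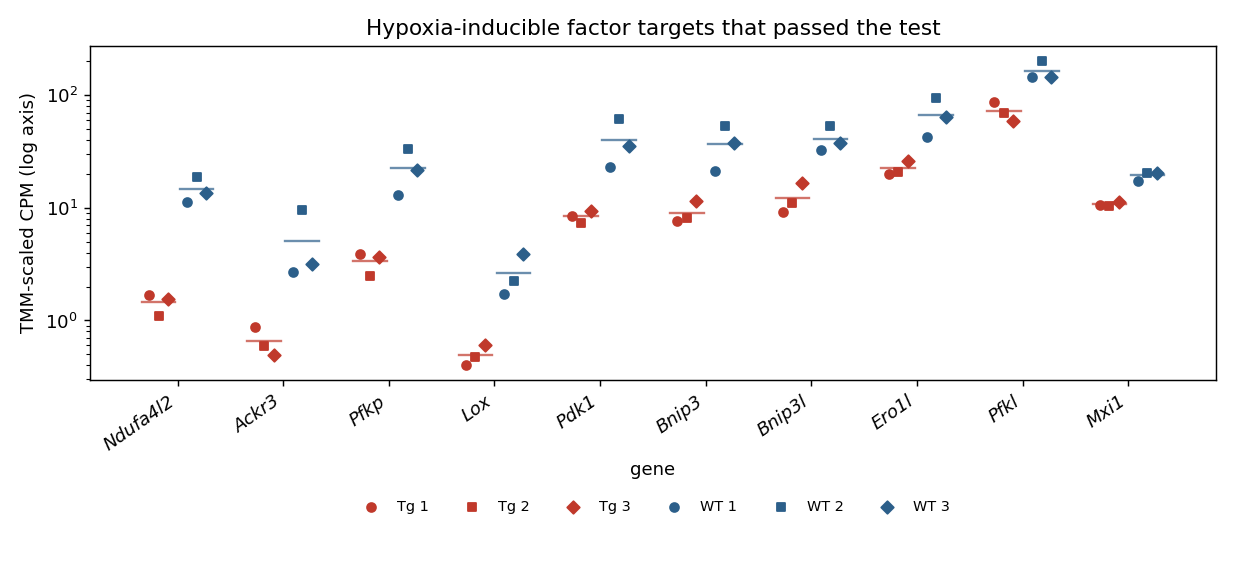
TMM-scaled CPM on a log axis for the 10 called hypoxia-inducible factor targets, ordered by fold change, with a point for each pool (Tg red, WT blue) and a bar at each group's mean, n = 3. All Tg pools lie below all WT pools in each gene, and WT 2 is the highest pool in 8 of the 10.

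Carriers of organic ions and amino acids gave few calls, beside the 3.15% called over all tested genes. Slc13a3 was the only one of 28 organic anion and cation carriers, whose median was 0.30. Among 26 amino acid transporters 2 rose and 1 fell, with a median of 0.29. Slc1a2, a glutamate carrier of hepatocytes around the central vein, was read at 9.54, 10.2 and 13.5 CPM in Tg pools against 3.76, 3.43 and 3.39 CPM in WT pools (1.65 ± 0.20, adjusted p = 0.0178 in edgeR). Slc1a1, its relative, was under 1 CPM in every pool (4.16 ± 0.63, adjusted p = 0.0298). Slc38a4, a carrier of neutral amino acids that is abundant in liver, fell from 581, 537 and 547 CPM to 387, 289 and 295 CPM (-0.78 ± 0.15, adjusted p = 0.0478). All 3 passed with the length covariate. Of 32 ABC transporters, Abca8b (-1.29 ± 0.25) and Abca6 (-1.59 ± 0.23) fell, both of 1 gene cluster, with adjusted p-values of 0.0478 and 0.0273, and neither passed with the covariate.

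The following lists of liver metabolism and its regulation gave 1 or 2 calls each, too few to set a list apart from the 3.15% called over all tested genes. Alas1, the first enzyme of haem synthesis, was read at 303, 262 and 243 CPM in Tg pools against 160, 139 and 143 CPM in WT pools (0.87 ± 0.13, adjusted p = 0.0298 in edgeR). Steap2, a metalloreductase, fell from between 41 and 48.7 CPM to between 11 and 16.6 CPM (-1.79 ± 0.20, adjusted p = 0.0148). They were the 2 calls among 30 genes of metal ion handling. Cebpd, an early factor of the acute phase, rose (1.60 ± 0.25, adjusted p = 0.0298) and Nr5a2, a nuclear receptor of bile acid synthesis, fell (-0.90 ± 0.17, adjusted p = 0.0473, 0.07 with the length covariate), out of 29 liver transcription factors with a median of 0.02. Igf1r, the receptor of insulin-like growth factor, is scarce in adult hepatocytes and stood at 3.57, 3.41 and 2.89 CPM against 0.516, 0.843 and 0.602 CPM (2.32 ± 0.29, adjusted p = 0.0178). It was the only call among 24 genes of the growth hormone and IGF axis and among 25 of insulin and FGF signalling. C1s1, a protease of the first complement complex, fell from 202, 162 and 172 CPM to 78.3, 80 and 72.2 CPM (-1.22 ± 0.13, adjusted p = 0.0134). With Cpb2, on chromosome 14, it made up the 2 falls among 44 complement and coagulation genes. Ugt1a6b was the only call among 24 glucuronosyltransferases and sulfotransferases (-0.88 ± 0.17, adjusted p = 0.0483, 0.116 with the length covariate), and it shares exons with other genes of its locus.

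The most abundant genes that rose outside chromosome 14 included several that are known from the innate and acute-phase response; they are named one by one, and no list of them was counted. Oasl1, of the interferon-induced oligoadenylate synthetase family, stood at 1711, 1585 and 1445 CPM in Tg pools against 679, 712 and 566 CPM in WT pools (1.28 ± 0.15, adjusted p = 0.016 in edgeR). Saa3, an acute-phase protein, stood at 475, 469 and 484 CPM against 98.6, 123 and 200 CPM (1.76 ± 0.26, adjusted p = 0.0287). Cd14, the co-receptor of bacterial lipopolysaccharide, stood at 656, 727 and 618 CPM against 282, 255 and 292 CPM (1.27 ± 0.13, adjusted p = 0.0117). In these genes, too, no pool of one group reached the other. Lrg1 (1.32 ± 0.21), the chemokine gene Ccl5 (1.29 ± 0.20) and Oas3 (1.54 ± 0.17) rose with adjusted p-values of 0.0304, 0.0298 and 0.0142. Of these Ccl5 did not pass with the length covariate (adjusted p = 0.0517). Chchd10, a small protein of mitochondria, rose by 0.98 ± 0.18 (adjusted p = 0.0386), but its estimate was 0.53 ± 0.14 with the length covariate (adjusted p = 0.07).

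Markers of macrophages lay higher in the Tg pools beside these genes, as was measured on a list of 12. None passed, all 12 had estimates above 0, 3 had Tg pools all above the WT pools (16.5% of all tested genes did), and the median was 0.82 (1.26 with the length covariate). Their summed level ran from 345 to 644 CPM in Tg pools and from 205 to 306 CPM in WT pools. Clec4f, specific to Kupffer cells, was at 8.03, 9.65 and 10.5 CPM against 4.03, 5.22 and 5.8 CPM (0.90 ± 0.21, adjusted p = 0.0685 in edgeR, 0.0315 with the covariate). No defining marker of the list was at 0. A higher share of such cells and more RNA per cell cannot be told apart in pooled RNA, and the part of macrophages in the rises of immune genes was not tested. Ighm, the heavy chain of immunoglobulin M, rose from between 1.04 and 1.28 CPM to between 8.12 and 11 CPM (3.01 ± 0.23, adjusted p = 0.00582). Cd79a, Cd79b, Ms4a1 and Jchain, further B cell markers, were too low to be tested, as were all 8 T and NK cell markers, 5 of 6 neutrophil markers and all 4 mesothelial ones.

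Hepatocyte identity was present in both groups. Alb, serum albumin, stood between 30138 and 42687 CPM in Tg pools and between 30876 and 37827 CPM in WT pools (0.15 ± 0.24, adjusted p = 0.665 in edgeR), and none of the 12 hepatocyte markers passed, with a median of 0.16. The summed level of 10 endothelial markers was 40.3 to 58.8 CPM in Tg pools and 40.1 to 45.5 CPM in WT pools, with no call. None of the 6 tested stellate cell markers passed, with a median of 0.52 (0.83 with the length covariate) and a summed level of 34.4 to 58.3 CPM in Tg pools against 22.1 to 30.2 CPM in WT pools. Estimates were above 0 in 4 of the 6. Reln went the other way, with overlapping groups (-1.04 ± 0.52, adjusted p = 0.219). Acta2, the actin of smooth muscle and activated stellate cells, was at 44.1, 16.5 and 17.6 CPM in Tg pools and at 8.07, 4.32 and 6.37 CPM in WT pools (2.06 ± 0.45, adjusted p = 0.0599), with no overlap. Rgs5, a marker of pericytes, passed with the covariate (3.18 ± 0.31, adjusted p = 0.00583), but not without it (1.54 ± 0.62, adjusted p = 0.162). Lrat, Des, Pdgfrb and Hand2 were too low to be tested. Of 8 tested cholangiocyte markers 1 fell, Pkhd1, the gene of a protein of the primary cilium (-1.14 ± 0.20, adjusted p = 0.0348), which did not pass with the covariate. The list was mixed, with 5 of 8 estimates above 0 and a median of 0.42 (-0.069 with the covariate). In 4 members all Tg pools lay above the WT pools and in 2 below, where over all tested genes 16.5% lay above and 16.5% below. Those above included Epcam (1.74 ± 0.46, adjusted p = 0.0825, 0.0175 with the covariate) and Krt7 (1.90 ± 0.66, adjusted p = 0.129). Spp1 lay below, at 317, 486 and 555 CPM in Tg pools against 596, 644 and 1021 CPM in WT pools (-0.74 ± 0.28, adjusted p = 0.152). The summed level of the list was 513 to 725 CPM in Tg pools and 773 to 1240 CPM in WT pools. The part of such cells in other results was not tested. Of 2 tested adipocyte markers, Cfd, the serine protease adipsin, rose from at most 0.152 CPM in any WT pool to between 2.32 and 5.86 CPM (5.56 ± 0.78, adjusted p = 0.0247). The other, Fabp4, overlapped between groups and did not pass (0.41 ± 0.48, adjusted p = 0.559). Adipoq, Plin1, Lep and Retn were too low to be tested. Red cell markers gave no call among 3.

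Major urinary proteins are pheromone carriers made by the liver, in males above all, from a cluster of near-identical genes on chromosome 4, so that reads may be split between copies. Mup3 was read at 917, 856 and 1444 CPM in Tg pools and at 2869, 3531 and 2866 CPM in WT pools (-1.53 ± 0.24, adjusted p = 0.0304 in edgeR). Mup12 (-2.97 ± 0.29), Mup1 (-2.97 ± 0.34), Mup7 (-2.04 ± 0.36) and Mup21 (-3.55 ± 0.70) fell as well, with adjusted p-values of 0.0104 to 0.0485. With the length covariate Mup7 stood at -1.26 and Mup21 at -1.87, and neither passed (adjusted p = 0.168 and 0.262). Mup9 went the other way, from between 0.243 and 0.734 CPM to between 4.57 and 5.89 CPM (3.37 ± 0.41, adjusted p = 0.0163). Cyp2a4, a P450 that is higher in females, was at 162, 70.2 and 130 CPM against 11.6, 4.05 and 6.67 CPM (4.02 ± 0.49, adjusted p = 0.0167), and shares most of its sequence with Cyp2a5 (0.65 ± 0.12, adjusted p = 0.046, 0.0773 with the covariate). The 4 Y-linked genes that were checked all had lower estimates in Tg, from -1.52 to -1.21, and none passed. Kdm5d was at 5.57, 6.57 and 11.2 CPM in Tg and at 14.6, 19.8 and 19.5 CPM in WT pools, with no overlap (-1.21 ± 0.30, adjusted p = 0.0716). Ddx3y overlapped, at 5.62, 6.4 and 40.3 CPM in Tg and at 19.5, 77.2 and 52.8 CPM in WT pools. Xist, from the inactive X chromosome, was at 3.2 to 5.36 CPM in Tg and at 3.27 to 3.94 CPM in WT pools. Every pool thus held RNA of both a Y-linked gene and Xist, and the part of the sexes' shares in the Mup and Cyp2a values was not tested.

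Chromosome 14 stood apart from all others. Of its 437 tested genes, 77 fell (17.6%) and 2 rose, beside 1.62% of all tested genes that fell. In 284 of the 437 all Tg pools lay below all WT pools, and in 12 above, where over all tested genes 16.5% lay below and 16.5% above. Estimates were below 0 in 387 (88.6%), against 49.8% on the other chromosomes, with a median of -0.69 against 0.003. The per-pool medians, taken from the mean of the WT pools, were -0.73, -0.60 and -0.64 in the Tg pools and -0.015, 0.024 and 0.0031 in the WT pools. Their difference was -0.66, with an exact two-sided permutation p of 0.1, the smallest that 3 pools against 3 allow. It was -0.70 within the pools of lower length slope and -0.67 within those of higher slope. The Tg pools had the lower slopes on both sides, so the sides are not matched on length. In Tg pool 3, whose other autosomes and X chromosome had medians within 0.09 of 0, chromosome 14 was as low as in Tg pools 1 and 2.

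The shift ran along the whole chromosome. In 10 blocks of 43 or 44 tested genes in chromosome order, the median was below 0 in each, and each held between 3 and 11 falls. It was weakest in the block from Tep1 to Ppp1r3e (50824062 to 54877550, GRCm38), at -0.33, and strongest in the last, from Mzt1 to Tmtc4 (99034544 to 122984035), at -1.07. In the last block the Tg pools stood at -1.31, -1.16 and -0.77. In the block from Tep1 to Ppp1r3e they stood at -0.33, -0.28 and -0.53, so that Tg pool 3 was the highest of the 3 in the last block and the lowest in this one. The shift was present at every transcript length, with chromosome 14 lower than other genes by 0.66 to 0.77 in each of the 5 length classes. With the chromosome's genes in 3 classes of equal size by level, the median was -0.79 in the lowest, -0.77 in the middle and -0.57 in the highest. Of the genes, 25% lay below -1.23 and 25% above -0.34, and the median gene was at 0.619 of its WT level on the linear scale.

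**Figure D4:**
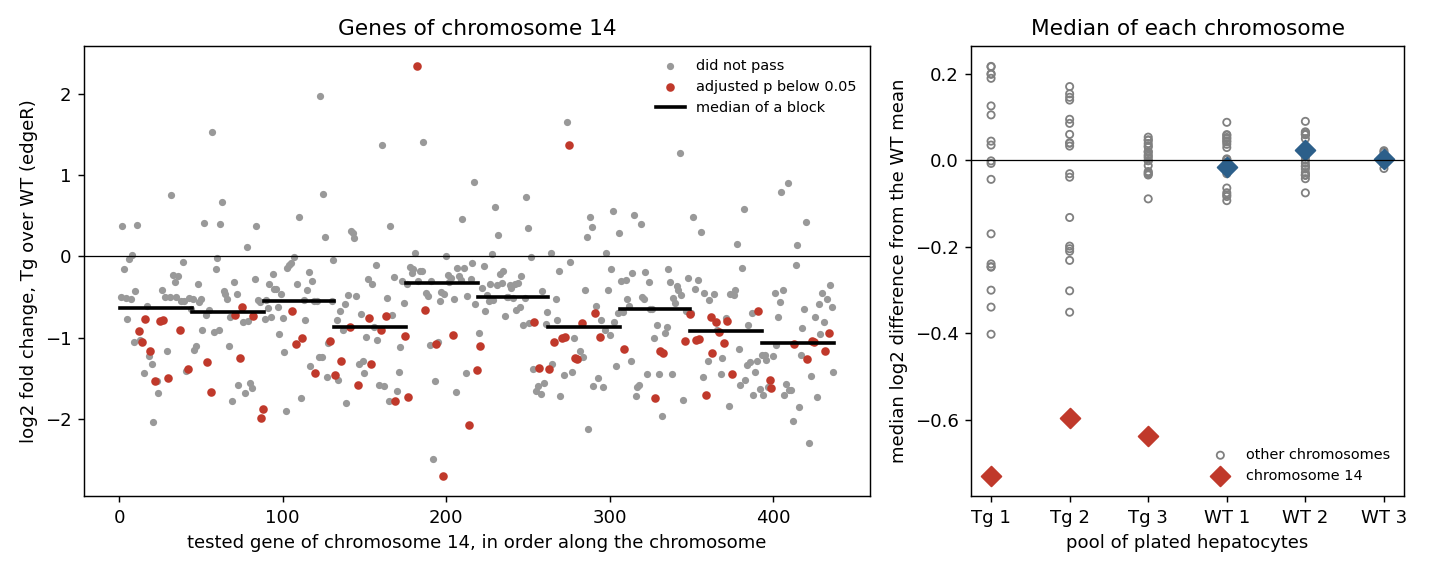
Left, log2 fold change of Tg over WT (y axis) for the 437 tested genes in order along chromosome 14 (x axis), with called genes in red and black bars at the medians of 10 blocks, all of them below 0. Right, median log2 difference of each pool from the WT mean for chromosome 14 (diamonds, Tg red and WT blue) and for each other autosome and X (open circles). Chromosome 14 is at -0.60 to -0.73 in the 3 Tg pools.

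The lower genes of chromosome 14 with the smallest p or the highest level have a variety of known roles. Sall2, a zinc finger transcription factor (52311172 to 52328762), was read at 1.42, 1.69 and 1.6 CPM in Tg pools against 9.28, 11.2 and 10.1 CPM in WT pools (-2.70 ± 0.19, adjusted p = 0.00582 in edgeR). Glud1, the glutamate dehydrogenase of mitochondria (34310727 to 34345144), was read at 413, 377 and 309 CPM against 790, 692 and 788 CPM (-1.05 ± 0.15, adjusted p = 0.0273). Cpb2, a plasma carboxypeptidase that slows clot breakdown (75242287 to 75283551), was read at 356, 374 and 335 CPM against 651, 689 and 680 CPM (-0.93 ± 0.12, adjusted p = 0.0185). In all 3 the pools of a group were close and the groups far apart. Further falls were those of Tmem260 (-1.78 ± 0.15), the nuclear importer gene Ipo5 (-1.05 ± 0.12), Tm9sf2 (-1.17 ± 0.12), Cab39l (-1.25 ± 0.15), and Micu2, a gatekeeper of mitochondrial calcium uptake (-1.01 ± 0.13). Ppp1r3e, which brings a phosphatase to glycogen (-1.40 ± 0.18), and the vesicle coat regulator gene Arf4 (-0.63 ± 0.11) fell as well. The adjusted p-values of these 7 ran from 0.00815 to 0.0333, and all 10 genes named here passed with the length covariate. Other falls of chromosome 14 fell in several lists: Bmpr1a and Bmp1 were the 2 calls among 40 TGF-beta pathway genes, Glud1 and Pcca the 2 among 40 genes of amino acid breakdown, and Psmd6 the only one among 37 proteasome genes. The 2 rises were Phf11b, an interferon-responsive gene, at 4.52, 4.38 and 5.52 CPM against 1.79, 1.74 and 2.05 CPM (1.37 ± 0.21, adjusted p = 0.0303), and Pnp2, which has a near-identical neighbour, so that reads may be split (2.33 ± 0.40, adjusted p = 0.0333, 0.0752 with the length covariate).

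Several lists had few or no calls, and their medians moved with the length covariate. That covariate is the slope of each pool, while the length offset is fitted by the length of each gene. Nuclear subunits of respiratory complex I, short genes with a median of 1328 bases, gave no call among 36 and 33 estimates above 0. Their median was 0.38, and was -0.08 with the covariate and 0.25 with the offset. Subunits of complexes II to V gave no call among 39. Their median went from 0.37 to -0.04 with the covariate and to 0.26 with the offset. Glutathione S-transferases gave no call among 19, and went from 0.47 to 0.03 with the covariate and to 0.33 with the offset. The glucuronosyltransferase and sulfotransferase list, which held 1 call, went from -0.44 to 0.096 with the covariate, but stayed at -0.43 with the offset. Of 40 lists with at least 8 tested members, 17 had a median whose sign turned with the covariate. The Ly6, Kupffer cell and hypoxia lists kept theirs. No member passed among 30 genes of methionine and folate metabolism, 29 of the Wnt pathway, 16 of the Notch pathway, 27 of EGF and MAP kinase signalling, 24 of heat shock and 24 of peroxisome biogenesis, and their medians lay between -0.14 and 0.15. Among 44 genes of lysosome and autophagy Atg9b alone fell, and among 16 annexins and S100 genes Anxa3 fell. A list of gliomedin and its node of Ranvier partners had 9 tested genes, of which Gldn and the axonal gene Cntnap1 rose. That list was written with earlier results of these data known, so the place of Gldn in it adds nothing to its own call. H19 was the only call among 14 long noncoding RNAs, and rose. That list otherwise leaned lower, with 4 of 14 estimates above 0 and a median of -0.52, which turned to 0.15 with the covariate.

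**Figure D5:**
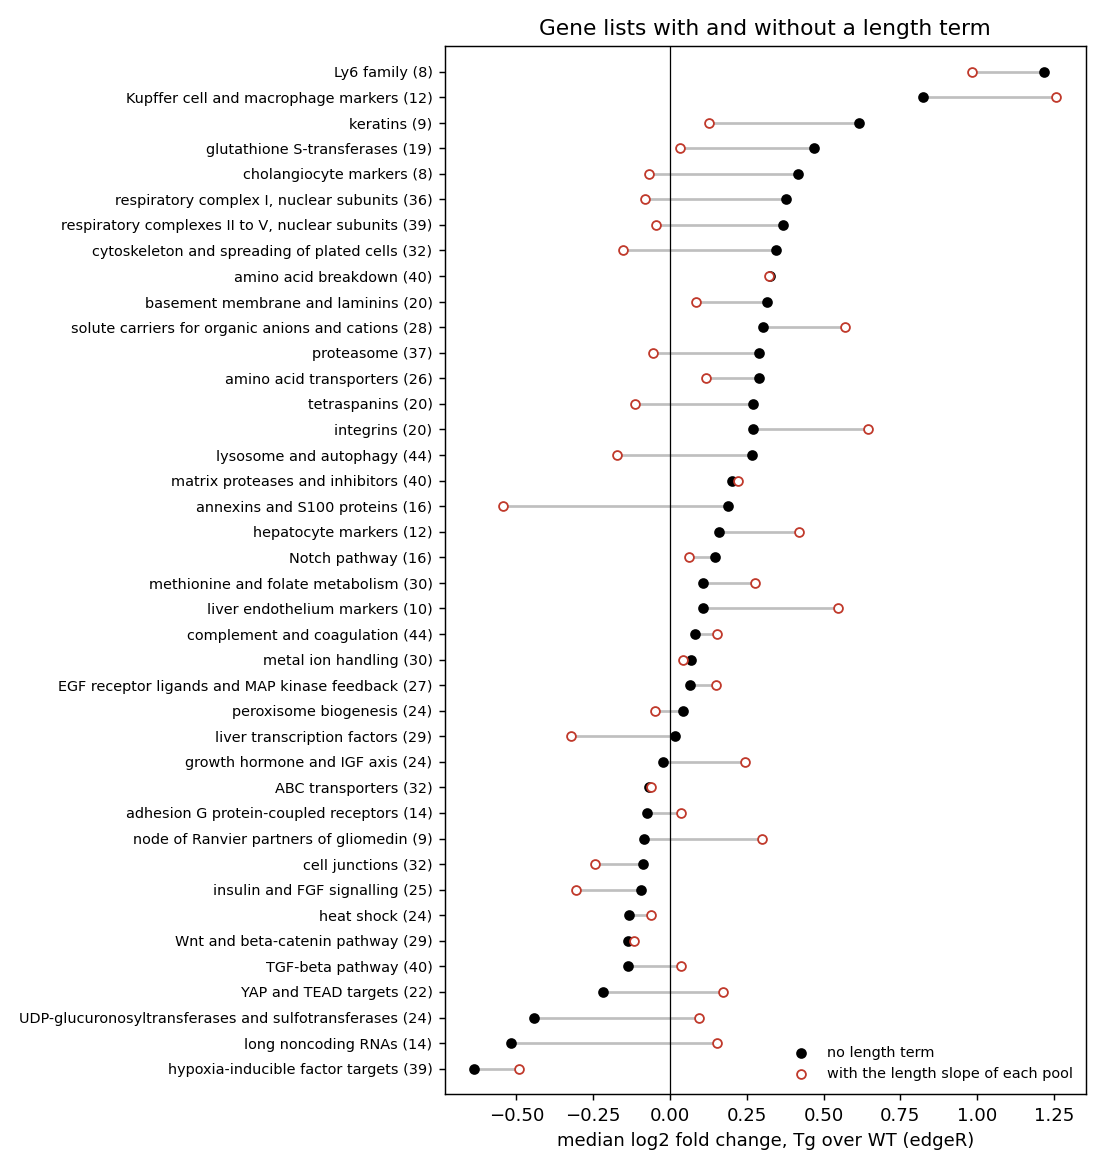
Median log2 fold change of Tg over WT (x axis) for the 40 gene lists with at least 8 tested members (y axis, members in brackets), in the fit without a length term (black) and in that with each pool's length slope (open red). The Ly6 and Kupffer cell lists are the highest and the hypoxia list the lowest in the fit without the term, and 17 lists lie on either side of 0 in the 2 fits.

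Outside the calls of the fit without a length term, the length covariate brought up genes that rose most in Tg pool 3. Nos2, the inducible nitric oxide synthase, was read at 13.1, 20.7 and 95.5 CPM in Tg pools against 0.849, 3.29 and 1.12 CPM in WT pools. The neutrophil chemokine gene Cxcl5 was read at 2.29, 5.54 and 28 CPM against 0.394, 1.03 and 0.848 CPM. The groups did not overlap in either of them, while the Tg pools differed several-fold among themselves. Without the covariate the estimates were 4.61 ± 0.95 for Nos2 (adjusted p = 0.0536 in edgeR) and 3.96 ± 0.98 for Cxcl5 (0.0744). With it they were 6.81 ± 0.31 and 6.33 ± 0.26 (adjusted p = 0.00037 for both). The length offset gave smaller values, 4.67 ± 0.92 for Nos2 (adjusted p = 0.0487) and 3.87 ± 1.01 for Cxcl5 (0.0765). Serpina3f and the chemokine gene Cxcl2 passed with the covariate too, with 5.44 ± 0.38 and 3.47 ± 0.26. Neither passed with the offset (adjusted p = 0.0667 and 0.129).

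The same strain was compared in whole livers, with their own 4 A1cf_Tg/+ and 4 C57BL/6J pools of mice aged 12 months. The difference of the 2 effects passed in 131 of 15565 genes (0.842%) in edgeR. Gldn was higher in both, by 7.32 ± 0.55 in hepatocytes and 6.99 ± 0.69 in livers, and the difference of 0.47 ± 1.03 did not pass (adjusted p = 0.799). Adgre5 stood at 5.22 in hepatocytes and at 0.77 ± 0.18 in livers (adjusted p = 0.0674). Ndufa4l2 stood at -3.33 in hepatocytes and at 0.57 ± 0.31 in livers (adjusted p = 0.34). Both differences passed, at 4.65 ± 0.42 for Adgre5 and -3.71 ± 0.43 for Ndufa4l2. On chromosome 14, 336 of 412 genes with an estimate in liver were below 0 there (81.6%), with a median of -0.30 and 9 falls and 3 rises past the threshold. Of 12270 genes on the other chromosomes, 49.9% were below 0 in liver, with a median of 0.0004 and 37 falls and 110 rises. Tissue, age and plating differ together between the 2 sets of pools and cannot be told apart.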

How the data were processed

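Polyadenylated RNA of 6 hepatocyte pools was sequenced on a HiSeq2000, per the labels' protocols. Bases were called with bcl2fastq, reads aligned with STAR 2.0.4b to GRCm38 and assigned to genes with featureCounts 1.45 of Subread, per the submitters' processing notes. The annotation release, strand setting and treatment of reads with several alignments are not given in the sources used here. The deposited tables list 41388 genes, and their raw read count was the unit tested. The deposited CPM are the counts per 1e+06 counts of the library, and the deposited RPKM divide these by gene length; both were recomputed from the counts. RPKM were not otherwise used. GENCODE M21 lists 40254 of the identifiers and served to check positions and names.

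The test was edgeR's quasi-likelihood F-test (version 4.0.16, R 4.3.3) on TMM-scaled libraries, after filterByExpr at a minimum count of 10 and a total of 15, with Benjamini-Hochberg adjustment and a threshold of 0.05. Levels are TMM-scaled CPM. Length slopes and chromosome medians used log2 CPM with a prior count of 2. Alternatives were DESeq2 1.42.0, limma-voom with quality weights (limma 3.58.1), other filters, a length offset (lowess span 0.3), a length covariate, a replicate block, scaling or testing without chromosome 14, all RNA groups in 1 fit, and leaving out each pool. Same-numbered pools did not consistently deviate together (correlations 0.69, -0.51 and -0.031), and Tg pool 3 had its highest correlation with WT pool 2 (0.72). The main design therefore has no block.

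Named were A1cf, the 15 largest rises and falls and the 12 most abundant calls in each direction outside chromosome 14, the leading calls of chromosome 14, up to 4 members of smallest p per gene list, and the leaders of the length covariate fit and of the tissue difference, at a mean of at least 2 CPM except in lists; any other gene in the text was picked with its values in view. A few genes selected this way are not reported here. The 47 lists carry no test. The pools, lists and this rule were chosen with earlier results of these data known. CLIP-seq, knockout and C57BL/6NJ libraries entered no comparison here, other than the fit over all RNA groups. Pools differed by more than counting noise, and none was counted as a copy of another.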

Additional observations from a re-analysis of the deposited data

Results flagged for a closer look

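For 2 genes the effect of the Tg label differed between plated hepatocytes and livers, by a test of the difference itself in edgeR. Adgre5 was higher by 4.65 ± 0.42 (SE, log2) in the hepatocyte comparison than in the liver comparison, with an adjusted p of 0.000347. Ndufa4l2 was lower by a log2 difference of -3.71 ± 0.43, with an adjusted p of 0.00264. Tissue, age and plating differ together between the comparisons, and their parts in these differences cannot be told apart.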

How the results depend on the processing

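The number of called genes moved with most choices, and the cause was not tested. Against 434 in all, 79 on chromosome 14 and 355 outside it, DESeq2 called 2017, 224 and 1793, limma-voom with quality weights 8775, 334 and 8441, and a fit over all 6 RNA groups 4323, 203 and 4120. Without a filter on low counts 669 genes were called in all and 561 outside chromosome 14. The length covariate gave 721 and 608. A fold of at least 2 left 51 calls on chromosome 14. Leaving out 1 pool gave 0 to 4934 calls in all, 0 to 239 on chromosome 14 and 0 to 4695 outside it, the lowest without WT pool 3 and the highest without Tg pool 3. With replicate number as a block, 21 genes were called, 1 on chromosome 14 and 20 outside it. The check of pairing showed no consistent link between same-numbered pools. The tissue difference passed in 131 genes, in 1015 by DESeq2, in 0 with the replicate block in edgeR (2124 at an unadjusted p below 0.05) and in 5 to 3545 without 1 pool. The length offset (404), a mean of at least 2 CPM (396) and scaling without chromosome 14 (454) stayed within 1.5 times of 434. The chromosome 14 difference between pools stayed between -0.70 and -0.62 in the alternatives run, with an exact permutation p of 0.1 wherever one was computed. The difference of the length slopes stayed below 0, at an exact p of 0.1 to 0.3. The A1cf estimate was 0.53 with the length covariate, and turned to -0.10 by limma-voom, to -0.04 without Tg pool 3 and to -0.17 without WT pool 1, within a range of -0.17 to 0.14 over the fits that leave out 1 pool, and passed in none of them. Genes under about 1 CPM rest on few reads, and 3 pools a group limit every test.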
